A study of Rattus norvegicus with 22 samples.

Results

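The genes described are the cytochrome P450 (Cyp) genes of the rat, chosen by symbol: every gene on the array whose symbol is Cyp followed by a family number and a subfamily letter, each read from its brightest probe over the 22 arrays. There were 77 such genes in 15 families among 17684 gene symbols, and 2 of them (Cyp2j5-ps and Cyp3a85-ps) are pseudogenes. A gene is called detected on an array where its probe was well above background, and of the 77 genes 16 were detected on all 22 arrays, 26 on some and 35 on none. Between oral squamous cell carcinoma (OSCC) and adjacent normal tongue, Cyp27a1, Cyp2t1, Cyp2c79 and Cyp2f4 fell by 2.8-fold to 4.4-fold, while Cyp7b1 and Cyp3a9 rose by 2.5-fold and 2.1-fold. The call of Cyp3a9 was lost on leaving out any of 3 of the 11 animals. Cyp7b1 was higher in 8 of 11 pairs and Cyp2f4 lower in 9, and neither was called over the 9 pairs scanned on different days.

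P450 enzymes are heme-containing monooxygenases that place an oxygen atom from molecular oxygen into their substrate, with electrons from NADPH passed on by P450 oxidoreductase in the endoplasmic reticulum or by ferredoxin in mitochondria. Families 1 to 3 are best known for the oxidation of drugs and carcinogens in liver, family 4 and the Cyp2j genes for fatty acids and eicosanoids, and the higher-numbered families for sterols, steroid hormones, vitamin D and retinoic acid. Epithelia at body surfaces, such as airway, skin and gut, carry P450 sets of their own, and foreign compounds act on several of these genes through the aryl hydrocarbon receptor and nuclear receptors.

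The study compared OSCC with adjacent, phenotypically normal tongue of the same rat, to find genes whose expression differs in oral cancer. All 11 animals were male F344 rats given 4-nitroquinoline-1-oxide (4-NQO), a carcinogen that forms DNA adducts, as drinking water with 20 ppm over 10 weeks, so the normal pieces were exposed too. Tissue was taken 23 to 26 weeks after the first exposure, at an age of about 33 weeks. The array titles carry the word untreated in both groups and the labels list no treatment for the normal pieces. The animals were not from separate treatment groups, and the OSCC pieces are invasive tumors of bulk tongue tissue, in which fewer cells of a type and less RNA per cell cannot be told apart.

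Each tissue was hybridized to its own one-color array (11 OSCC and 11 normal). The 75th percentile of the signal was 237 to 655 on the normal arrays and 339 to 1414 on the OSCC arrays, and 48.4% to 56.1% of the probes on normal and 52.3% to 65.5% on OSCC arrays were detected. Scanning took 2 days: the first held all normal arrays with the tumors of animals 4 and 9, and the second the remaining 9 tumors. No slide held both tissues, so slide cannot be told apart from tissue. Expression is given below as log2 signal relative to the array's 75th percentile, and a difference as OSCC minus normal on that log2 scale. A gene was called at an adjusted p below 0.05 in limma (Benjamini-Hochberg over 30367 probes) with at least a 2-fold difference. On this scale the median difference over all genes was -0.20, and over the 9094 genes well above background on all arrays it was -0.07.

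Markers of other cell types moved with the tissue. The summed level of 10 skeletal muscle genes was 1256 to 2534 in normal tissue and 86.9 to 3287 in OSCC, in units of the array's 75th percentile; 6 of the 10 were called lower and 1 higher. Summed levels of 10 fibroblast genes had medians of 78.5 and 230 (7 called higher), of 9 macrophage genes 22.3 and 53.1 (6 called higher), and of 9 neutrophil genes 2.64 and 62.1 (7 called higher; Np4 was well above background on no array). Serous gland genes, of which 8 were on the array, rose from a median of 0.319 to 113 (6 called higher; Prol1 on no array). Squamous epithelial genes had medians of 710 and 723 (8 on the array, 7 well above background on all arrays). Of them 1 was called higher and 1 lower, and their sum was lower in 7 of 11 pairs. Adipocyte genes had medians of 19.5 and 15.8 and endothelial genes 16.3 and 13.4, with none called in either list. The adipocyte sum was lower in 8 of 11 pairs, but the median difference of its 8 genes was on the higher side (0.64). The endothelial sum was lower in 10 of 11 pairs. Of 10 hepatocyte genes, 7 were well above background on no array, albumin (Alb) and Apoa1 among them. The part of these cell types in the differences below was not tested.

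Many of the P450 genes by which liver is known were not detected. On single arrays, 21 to 29 of the 77 genes were well above background in normal tissue (median 23) and 23 to 35 in OSCC (median 30). In family 2, the largest with 34 genes, 6 were well above background on all arrays, 11 on some and 17 on none, and in family 4 the numbers were 5, 3 and 7 of 15. Family 3 had 1, 2 and 4 of 7. The genes found on no array include Cyp1a1 and Cyp1a2, which oxidize polycyclic aromatics, Cyp3a2 and Cyp3a23/3a1, the main Cyp3a genes of rat liver, Cyp2c11 and Cyp2c12, the sex-specific liver P450s, and Cyp7a1 and Cyp8b1 of bile acid synthesis.

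**Figure D1:**
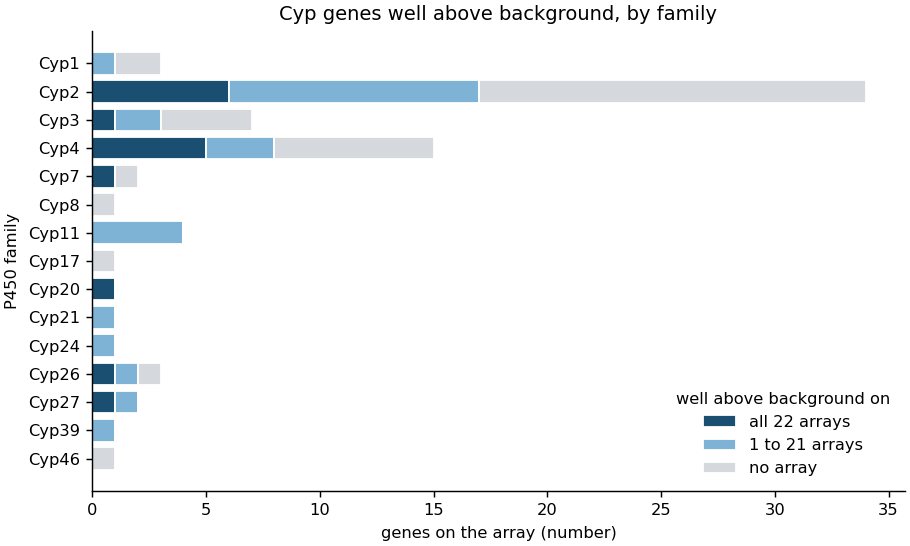
Number of Cyp genes on the array (horizontal axis) in each P450 family (vertical axis), coloured by whether the gene's brightest probe was well above background on all 22 arrays, on 1 to 21 or on none. Family 2 holds 34 of the 77 genes, and 17 of these were well above background on no array.

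Over all 77 genes, 2 were called higher in OSCC and 6 lower; over all gene symbols 14.8% were called, 7.7% higher and 7.12% lower. Of the 16 genes well above background on all arrays, 2 were called higher (Cyp3a9, Cyp7b1) and 3 lower (Cyp27a1, Cyp2t1, Cyp2f4), where 14.1% of all genes so detected were called (5.62% higher and 8.49% lower). Their median difference was -0.23. At an adjusted p below 0.05 with no fold threshold 8 of the 16 passed, 2 higher and 6 lower, against 47.9% of all genes in that class (19.4% higher and 28.5% lower). Of the 26 genes detected on some arrays, Cyp2c79 and Cyp3a62 were called lower, where 28% of all such genes were called and 9.32% were called lower, and their median difference was 0.10. The 35 genes found on no array had a median of -0.56, and the 4050 such genes of the whole array one of -0.55, with 1.58% of those called lower, so a value from this class is a difference between signals at background. Cyp2c11, on no array and not called without animal 4, and Cyp3a62, on 1 normal array and no OSCC array, were both called lower, and no fold is given for either. No Cyp gene had OSCC and normal values that did not overlap, as 1.57% of all genes did.

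Scaling moved the split between higher and lower calls. It was 2 higher and 6 lower as reported, 1 and 7 with arrays scaled to their median, 3 and 5 after quantile normalization or in the authors' scaled values, and 0 and 3 after normexp background correction. Animals 21, 22 and 24 were named by the study as examples of variable expression in normal tissue and in OSCC. Without their pairs 7 Cyp genes were called higher and 14 lower, against 23.7% of all genes called either way. Of those 21 genes, 5 were detected on no array. Leaving out single animals gave 1 gene higher without animal 11 and 5 without animal 24.

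**Figure D2:**
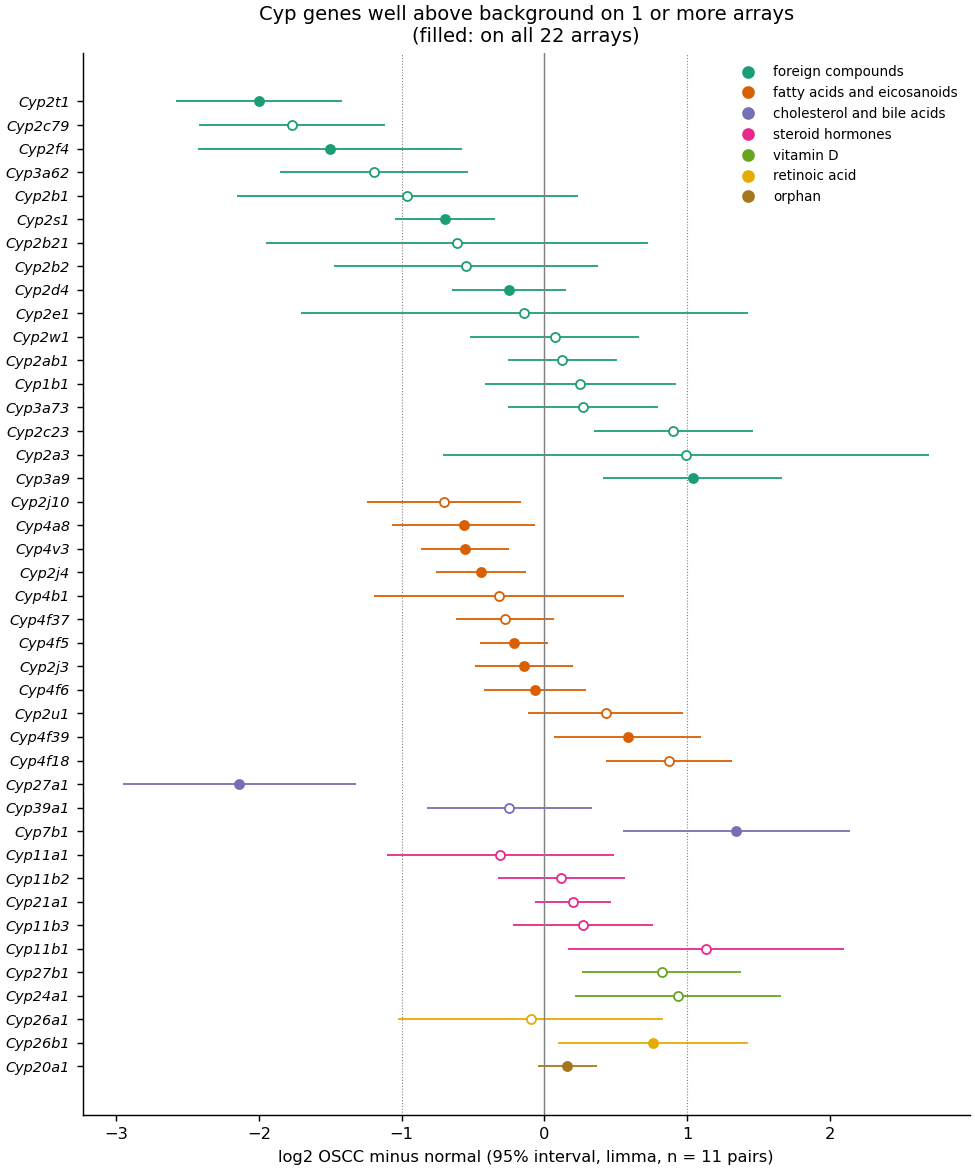
Log2 difference between OSCC and normal tissue (horizontal axis) with its 95% interval from limma over 11 pairs. Each row is a Cyp gene well above background on 1 or more arrays (vertical axis). Colours give a substrate class assigned by family or subfamily, also to genes whose substrates are little known. Filled points are genes detected on all 22 arrays, and open points rest in part on signals at background; dotted lines mark a 2-fold difference. Cyp27a1 and Cyp2t1 lie farthest to the left, at -2.14 and -2.00, and Cyp7b1 at 1.34 is the highest point.

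Among the 37 genes assigned to foreign compounds, 1 was called higher and 5 lower, against 14.8% of all genes called either way, and 20 were found on no array. The assignment is by family or subfamily, so it takes in genes whose substrates are little known. Of the 5 lower genes, Cyp2c11 was detected on no array and Cyp3a62 on 1. Cyp2t1 and Cyp2f4 lie close together on chromosome 1 (probes at chr1:82233051-82233110 and chr1:82204527-82204586, build rn4). Cyp2f4 is the rat form of an airway enzyme that forms the naphthalene epoxide, and the substrates of Cyp2t1 are little known. Cyp2t1 spanned 5.34 to 6.32 in normal pieces (median 5.82), against 2.42 to 5.55 in the tumors (median 3.87). It was lower in OSCC in 11 of 11 pairs, and the highest OSCC value lay within the normal range. The difference was -2.00 ± 0.27 (SE, n = 11 pairs; adjusted p = 0.00037), which is 4.00-fold lower.

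Cyp2f4 spanned 3.95 to 6.17 in normal pieces (median 5.65), against 0.51 to 6.21 in the tumors (median 4.19), so that the tumor values took in the whole normal range. It was lower in 9 of 11 pairs, with differences from -5.14 in animal 13 to 0.45 in animal 22, and higher in animals 17 and 22. The fitted difference was -1.50 ± 0.43 (SE; adjusted p = 0.016), 2.84-fold lower. Animal 13 had the largest fall of both genes (-3.81 for Cyp2t1), and also of Cyp27a1 (-4.37) and Cyp2c79 (-4.17). In animals 4 and 9, whose tissues were scanned on 1 day, Cyp2t1 differed by -1.75 and -1.85 and Cyp2f4 by -1.52 and -1.51. Over the 9 pairs scanned on different days Cyp2f4 differed by -1.50 with an adjusted p of 0.059.

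The promoters of this neighbouring pair are shown because both genes fell. Each holds the 250 bases before and 50 after the start in RefSeq build GRCr8, on the + strand (chr1:91575260-91575559 for Cyp2t1 and chr1:91543518-91543817 for Cyp2f4). Capitals mark matches, on either strand, to 5 motifs, none of which lies within another. The first is GCGTG, core of the xenobiotic response element to which the aryl hydrocarbon receptor binds. The second is AGGTCA, the hexamer of which many nuclear receptor sites are built. The third, the AP-1 site, is spelled TGANTCA with any base at the N. The fourth, the GC box, is searched for as GGGCGG in every window. The fifth is the TATA box, read here only where the letters TATAAA occur.
Cyp2t1: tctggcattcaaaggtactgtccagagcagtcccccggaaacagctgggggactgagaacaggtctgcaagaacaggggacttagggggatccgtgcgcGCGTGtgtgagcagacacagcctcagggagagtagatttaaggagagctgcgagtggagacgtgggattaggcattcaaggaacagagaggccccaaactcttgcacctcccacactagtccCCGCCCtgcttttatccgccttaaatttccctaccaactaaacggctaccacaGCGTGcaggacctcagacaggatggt
Cyp2f4: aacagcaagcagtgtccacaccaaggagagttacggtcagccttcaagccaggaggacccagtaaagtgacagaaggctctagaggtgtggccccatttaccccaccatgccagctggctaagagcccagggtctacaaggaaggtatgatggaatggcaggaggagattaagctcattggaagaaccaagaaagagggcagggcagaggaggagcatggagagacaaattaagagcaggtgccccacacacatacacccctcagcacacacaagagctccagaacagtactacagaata
The Cyp2t1 window held 2 matches to GCGTG and 1 to the GC box, and the Cyp2f4 window held no match to any of the 5. Over the 60 Cyp genes with a promoter in the table, GCGTG was present in 18 (30%) and in 29.7% of all 33469 promoters, and the GC box in 18 (30%) and 33.1%. AGGTCA was present in 20 (33.3%) against 16.2%, TATAAA in 15 (25%) against 14.2%, and TGANTCA in 4 (6.67%) against 7.33%. Among the 14 promoters of Cyp genes detected on all arrays, AGGTCA was in 2, TATAAA in 0, TGANTCA in 2, GCGTG in 6 and the GC box in 7. These are letter matches in the window and not sites of binding.

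Cyp2c79, a Cyp2c gene whose substrates are little known, was measured by 2 probes on chromosome 1. The brighter one (chr1:244400004-244400063) spanned -2.25 to -0.41 in normal pieces (median -1.43), against -5.27 to -1.39 in the tumors (median -3.25), and it was detected in 11 normal pieces and 10 tumors. Its difference was -1.77 ± 0.30 (SE; adjusted p = 0.0011), 3.41-fold lower, with a fall in 11 of 11 pairs. The second probe fell by 2.01 ± 0.26 on the log2 scale (adjusted p = 0.00034), also in 11 pairs, and was detected in 7 normal pieces and 1 tumor. In animals 4 and 9 the first probe differed by -1.88 and -1.95.

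Cyp3a9, a steroid hydroxylase of the Cyp3a subfamily, was the gene called higher among those assigned by family to foreign compounds. It spanned -1.86 to 1.00 in normal pieces (median -0.05), against -0.76 to 1.18 in the tumors (median 0.84), so the OSCC values lay mostly within the normal range. It was higher in 10 of 11 pairs, by 1.04 ± 0.29 (SE; adjusted p = 0.015), 2.05-fold. The rise was uneven, at 2.70, 2.41 and 2.36 in animals 21, 11 and 22, and between -0.04 and 0.18 in animals 4, 9, 16 and 17. In both pairs scanned on 1 day it was near 0 (-0.04 and 0.18). Leaving out animal 11, 21 or 22 left differences of 0.90, 0.87 and 0.91, below the 2-fold threshold. Its promoter (chr12:21960111-21960410, - strand, GRCr8) is shown for its 2 matches to TGANTCA, in capitals, a motif present in 7.33% of all promoters.
Cyp3a9: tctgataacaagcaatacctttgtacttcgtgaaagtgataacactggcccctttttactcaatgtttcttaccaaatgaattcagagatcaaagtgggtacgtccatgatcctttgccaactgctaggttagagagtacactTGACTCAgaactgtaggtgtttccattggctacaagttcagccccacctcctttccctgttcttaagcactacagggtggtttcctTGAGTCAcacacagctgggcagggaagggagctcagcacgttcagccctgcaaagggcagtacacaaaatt
The other Cyp3a genes, which share much of their sequence, were dim, and a probe may read more than its own gene. Cyp3a73 was well above background on 2 arrays and Cyp3a62 on 1.

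Cyp2s1, an epithelial P450 that is inducible through the aryl hydrocarbon receptor, was lower in 11 of 11 pairs but below the 2-fold threshold. It spanned 1.45 to 2.39 in normal pieces (median 1.84), against 0.08 to 1.65 in the tumors (median 1.31). The difference was -0.69 ± 0.16 (SE; adjusted p = 0.0059). Its other 2 probes, also above background on every array, differed by -0.06 (adjusted p = 0.82) and -0.38 (adjusted p = 0.12). Cyp2d4, a Cyp2d enzyme of brain and other extrahepatic tissues, differed by -0.25 (95% interval -0.65 to 0.15; adjusted p = 0.28), and by -0.88 at its second probe (adjusted p = 0.014). The probes of these 2 genes thus do not read the same difference.

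Several genes known from liver or airway were well above background in some pieces of tissue and not in others. Cyp2e1, which oxidizes ethanol and nitrosamines, was well above background in 3 normal pieces (animals 16, 17 and 26, at -2.54, -2.45 and -1.80) and 4 OSCC pieces (animals 4, 21, 22 and 24, at -4.68, -1.88, -2.42 and -2.48). No animal had it detected in both tissues, but detection also follows array brightness. The tumor of animal 17, on the OSCC array with the lowest 75th percentile (339), read -3.42 and was not counted as detected. The tumor of animal 4, on the OSCC array with the highest (1414), was counted at -4.68. Cyp2e1 was not called over 11 pairs (adjusted p = 0.88). Without animals 21, 22 and 24 it was called lower (adjusted p = 0.032), with the tumor of animal 4 then the only one in which it was detected, so no fold is given. The summed level of the adipocyte genes was 1.32, 2.17 and 2.68 times the normal level in animals 21, 22 and 24 and 0.295 to 0.923 times in the other 8. No single adipocyte gene was called over 11 pairs, and their part in the Cyp2e1 values was not tested. Cyp2b1, the phenobarbital-inducible P450, was well above background in 3 normal pieces (animals 4, 9 and 16) and 2 tumors (animals 22 and 24). Cyp2b21 was so in 2 normal pieces (animals 9 and 16) and 3 tumors (animals 4, 22 and 24). Neither was called over 11 pairs (adjusted p = 0.16 and 0.42), and both were called lower without animals 21, 22 and 24, when no tumor with Cyp2b1 detected was left and 1 with Cyp2b21, so no fold is given. Cyp2a3, known from nose and lung, was detected in 2 normal pieces and 5 tumors. Its highest levels were 0.55 and 0.14, in the tumors of animals 24 and 17, whose normal pieces were at background. Over 11 pairs it was not called (adjusted p = 0.30).

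Family 1 holds the best known target genes of the aryl hydrocarbon receptor. Cyp1a1 and Cyp1a2 were detected on no array. Cyp1b1, which forms estrogen and polycyclic aromatic metabolites outside the liver, was detected in 7 normal pieces and 9 tumors. It spanned -4.82 to -1.67 in normal pieces (median -3.43), against -4.05 to -1.94 in the tumors (median -3.56), and the ranges overlapped nearly in full. It was higher in 6 pairs and lower in 5, with differences from -1.37 to 2.13, and a fitted difference of 0.25 (95% interval -0.42 to 0.92; adjusted p = 0.51). Its direction turned with the pairs used, at -0.26 without animals 21, 22 and 24, and after normexp correction at -0.06.

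The receptor's own genes differed between the tissues. Ahr, the aryl hydrocarbon receptor, spanned -3.74 to -2.24 in normal pieces (median -2.75), against -3.09 to -0.57 in the tumors (median -1.39). It was higher in 11 of 11 pairs, by 1.24 ± 0.19 (SE; adjusted p = 0.00071), with 1.35 and 1.42 in animals 4 and 9. Its partner Arnt was higher in 10 pairs, by 0.94 ± 0.19 (adjusted p = 0.0027), just under the 2-fold threshold. Ahrr, the repressor of the receptor and itself a target gene, spanned -2.04 to -0.77 in normal pieces (median -1.26), against -4.25 to -2.10 in the tumors (median -3.17). These 2 ranges did not overlap, as for 1.57% of all genes, and Ahrr fell in 11 of 11 pairs, by 1.84 ± 0.20 on the log2 scale (adjusted p = 0.00014), with -1.76 and -1.45 in animals 4 and 9. It was detected in 11 normal pieces and 9 tumors. Tiparp, another target gene, was higher in 10 pairs, by 0.83 ± 0.15 (adjusted p = 0.0016). After normexp correction Ahr and Ahrr differed by 0.75 and -0.98, both below 2-fold. The promoter of Cyp1b1 (chr6:21094315-21094614, + strand, GRCr8) is shown with its 2 matches to GCGTG and its GC box in capitals.
Cyp1b1: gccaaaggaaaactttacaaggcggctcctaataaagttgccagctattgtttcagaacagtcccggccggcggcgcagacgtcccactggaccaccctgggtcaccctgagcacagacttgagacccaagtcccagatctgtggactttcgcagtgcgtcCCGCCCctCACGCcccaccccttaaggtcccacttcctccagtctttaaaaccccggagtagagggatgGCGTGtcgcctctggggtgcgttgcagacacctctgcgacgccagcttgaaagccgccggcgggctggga

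**Figure D3:**
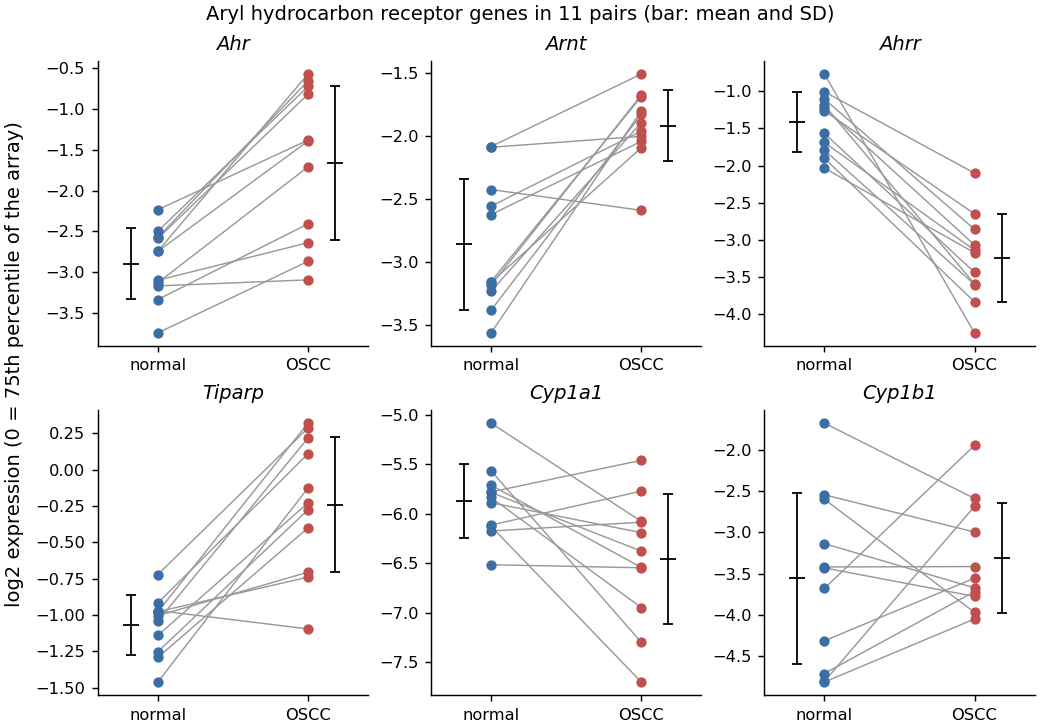
Log2 expression (vertical axis, 0 is the array's 75th percentile) of 6 genes of the aryl hydrocarbon receptor system in normal tissue (blue) and OSCC (red), with a grey line for each of the 11 animals and bars for mean and SD. Ahr rises in 11 of 11 animals and Ahrr falls in 11 of 11, while Cyp1a1 is at background level and Cyp1b1 moves both ways.

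The differences of the fatty acid and eicosanoid genes were under 2-fold. Of 21 such genes in family 4 and the Cyp2j and Cyp2u subfamilies, none was called by limma or by the methods' paired t-test, where 9 had an unadjusted p below 0.05 and 5 an adjusted p below 0.05 (1 higher, 4 lower), a mark that 45.1% of all genes passed. Of the 7 found on all arrays, Cyp4v3 and Cyp2j4 passed without the fold threshold. Cyp4v3, a fatty acid omega-hydroxylase, spanned -1.15 to -0.58 in normal pieces (median -0.73), against -1.76 to -0.75 in the tumors (median -1.43), and was lower in 10 of 11 pairs by 0.56 on the log2 scale (difference -0.56 ± 0.14, SE; adjusted p = 0.0095). The epoxygenase Cyp2j4 spanned 0.46 to 1.17 in normal pieces, against -0.24 to 1.08 in the tumors, and differed by -0.44 ± 0.15 (adjusted p = 0.029), with -0.39 at its second probe.

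For several of these genes the interval excluded a 2-fold difference. Cyp2j3 differed by -0.14 (95% interval -0.49 to 0.20), the leukotriene hydroxylases Cyp4f5 by -0.22 (-0.46 to 0.02) and Cyp4f6 by -0.06 (-0.42 to 0.29). Cyp20a1, an orphan P450, differed by 0.16 (-0.05 to 0.37). In all, 7 of the 16 genes detected on all arrays had intervals within 2-fold at their brightest probe: these 4, Cyp2d4, Cyp2j4 and Cyp4v3. For Cyp2d4 this holds at that probe only, since its second probe differed by -0.88 ± 0.24 (SE). The second probe of Cyp4v3 was well above background on no array. Cyp4f39, whose relatives make the ultra-long acyl lipids of the skin barrier, spanned -0.86 to 1.26 in normal pieces, against -1.79 to 1.81 in the tumors, and differed by 0.58 ± 0.24 (adjusted p = 0.061). Cyp4a8 differed by -0.57 ± 0.23 (adjusted p = 0.062), and its second probe was well above background on no array. Cyp4f18, known as a leukotriene B4 hydroxylase of neutrophils, was higher in 11 of 11 pairs, by 0.87 ± 0.20 (adjusted p = 0.0059). It was detected in 6 normal pieces and 10 tumors. The neutrophil marker genes were higher in 10 of 11 pairs, and their part in this difference was not tested. Without animals 21, 22 and 24 Cyp4f18 differed by 1.02 and was called.

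**Figure D4:**
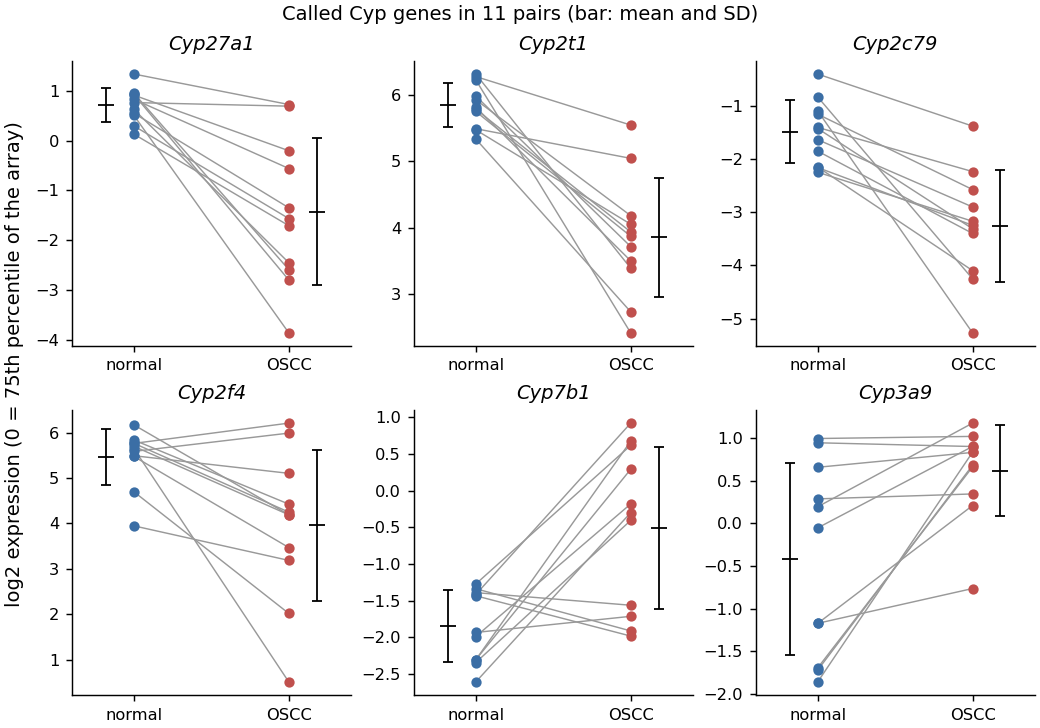
Log2 expression (vertical axis, 0 is the array's 75th percentile) of the 6 called Cyp genes that were detected in both tissues, in normal tissue (blue) and OSCC (red). Grey lines join the tissues of each of the 11 animals and bars give mean and SD; Cyp27a1, Cyp2t1 and Cyp2c79 fall in 11 of 11 animals, and the ranges of the tissues overlap for all 6 genes.

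The sterol genes Cyp27a1 and Cyp7b1 moved in opposite directions. They are consecutive enzymes of the alternative route of bile acid synthesis, in which mitochondrial Cyp27a1 makes 27-hydroxycholesterol and Cyp7b1 hydroxylates oxysterols at a further position. Of 6 genes for cholesterol and bile acids these 2 were called and were the ones found on all arrays. Over all genes 14.8% were called, and 14.1% of those found on all arrays. Cyp27a1 (chr9:74067772-74067831) spanned 0.13 to 1.34 in normal pieces (median 0.76), against -3.86 to 0.72 in the tumors (median -1.57). It was lower in 11 of 11 pairs, by as little as 0.07 in animal 24 (difference -0.07) and as much as 4.37 in animal 13 (-4.37). The fitted difference was -2.14 ± 0.38 (SE; adjusted p = 0.0013), 4.40-fold lower. Animals 4 and 9, scanned on 1 day, gave -1.84 and -1.90. The Cyp27a1 promoter (chr9:83713282-83713581, + strand, GRCr8) is shown for its 2 matches to AGGTCA, in capitals, a motif present in 16.2% of all promoters.
Cyp27a1: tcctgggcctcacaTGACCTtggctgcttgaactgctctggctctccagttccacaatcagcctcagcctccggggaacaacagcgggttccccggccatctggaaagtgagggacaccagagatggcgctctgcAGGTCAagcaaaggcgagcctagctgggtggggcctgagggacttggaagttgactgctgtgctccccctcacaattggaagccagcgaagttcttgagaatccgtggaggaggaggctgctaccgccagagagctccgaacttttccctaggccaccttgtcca

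Cyp7b1 (chr2:103103702-103103761) spanned -2.61 to -1.27 in normal pieces (median -1.93), against -1.98 to 0.92 in the tumors (median -0.30). The OSCC values fell on both sides of the normal range's upper end. It was higher in 8 of 11 pairs, by 1.34 ± 0.37 (SE; adjusted p = 0.014), 2.54-fold. In 7 pairs the difference was 1.81 to 2.98, and in animals 17, 21, 22 and 24 it was -0.58 to 0.22. Animals 4 and 9 gave 1.81 and 1.94, and the 9 pairs scanned on different days 1.23 with an adjusted p of 0.067. Cyp27a1 had its 4 smallest falls in the same 4 animals, at -1.39 to -0.07 against -4.37 to -1.84 in the other 7.

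The same 4 animals held the 4 lowest pair differences of a further gene, an ordering noticed after the values were seen. Cyp26b1, which clears retinoic acid, differed by -1.004 to -0.082 in these 4 and by 0.77 to 2.29 in the other 7. Among the 16 Cyp genes detected on all arrays, 4 had these animals as their 4 lowest or 4 highest differences (Cyp2f4, Cyp7b1, Cyp26b1 and Cyp27a1), as did 18.7% of all genes so detected. Over all 77 Cyp genes 29 did, against 27% of all genes, and genes detected on no array, such as Cyp1a1 and Cyp7a1, were among the 29. The OSCC arrays of these 4 animals had 75th percentiles of 339 to 533, and those of the other 7 had 499 to 1414. The part of array brightness in this ordering was not tested. Of the 9 marker lists, 4 had ratios that did not overlap between these 4 animals and the other 7. The skeletal muscle sum in OSCC was 0.42 to 1.93 times that of the paired normal tissue in the 4 animals and 0.053 to 0.28 times in the other 7. The fibroblast ratios were 0.536 to 1.90 and 2.06 to 7.07, the macrophage ratios 0.981 to 1.59 and 1.91 to 4.69, and the neutrophil ratios 0.68 to 7.73 and 18.2 to 104. The squamous ratios overlapped (0.399 to 2.09 and 0.459 to 1.25), as did those of serous gland, adipocyte, hepatocyte and endothelial genes. These 4 animals are not a group of the study, and no test was made between them and the others.

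**Figure D5:**
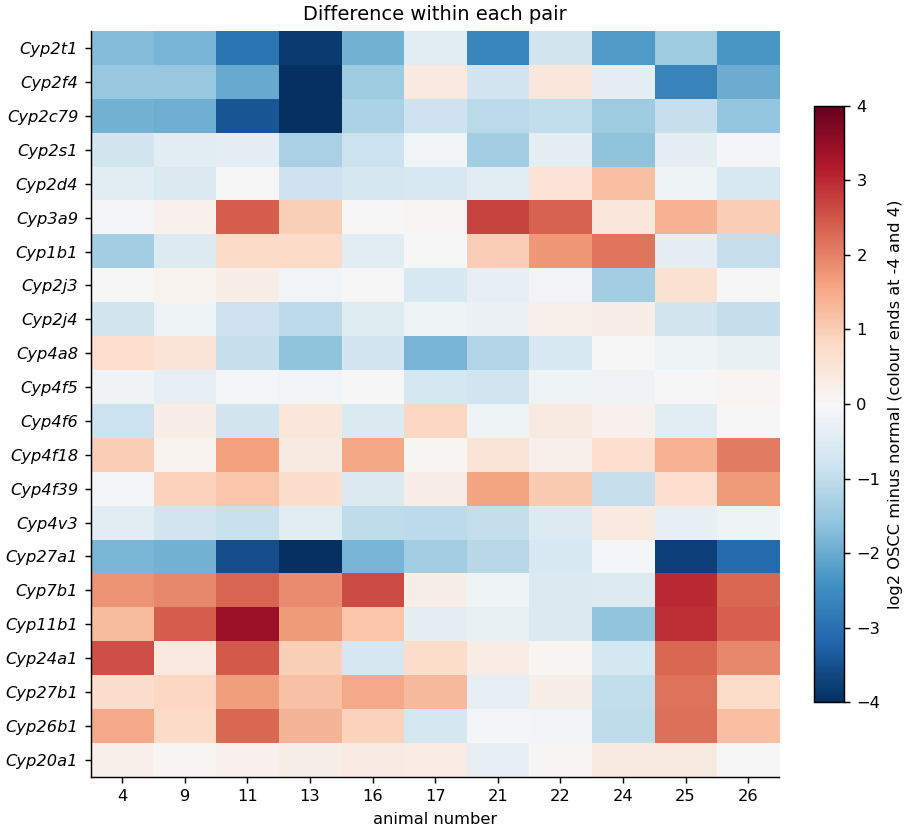
Log2 difference between OSCC and normal tissue in each of the 11 animals (columns) for 22 Cyp genes (rows), coloured from blue (lower in OSCC) to red (higher), with colours ending at 4 on each side. Cyp27a1 is palest, and Cyp7b1 and Cyp26b1 are blue or nearly white, in animals 17, 21, 22 and 24; Cyp11b1 and Cyp24a1 were detected in no normal piece, so their colours compare with signals at background.

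Over all 11 pairs Cyp26b1 spanned -0.84 to -0.21 in normal pieces (median -0.56), against -1.56 to 1.62 in the tumors (median 0.65), and differed by 0.76 ± 0.31 (SE; adjusted p = 0.059). Without animals 21, 22 and 24 it differed by 1.20 and was called (adjusted p = 0.0066). Of 3 genes for retinoic acid none was called by limma or the paired t-test, and 2 had an unadjusted p below 0.05. An adjusted p below 0.05 was reached by 1 of the 3 (Cyp26c1), a mark that 45.1% of all genes passed. Cyp26a1 was well above background on 1 array and Cyp26c1 on none.

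Vitamin D and steroid genes were at the limit of detection. Cyp27b1, which makes the active hormone 1,25-dihydroxyvitamin D, was detected in 2 normal pieces and 8 tumors, with medians of -4.05 and -3.08 and a difference of 0.82 ± 0.26 (SE; adjusted p = 0.025). Cyp24a1, which breaks that hormone down, was detected in no normal piece and in 5 tumors, and was higher in 9 of 11 pairs (adjusted p = 0.039), and its second probe had an adjusted p of 0.51. Their receptor gene Vdr was detected in 8 normal pieces and 11 tumors and differed by 0.93 ± 0.19 (adjusted p = 0.0030), higher in 10 pairs. Cyp27b1 did not reach a 2-fold difference over 11 pairs, and did without animals 21, 22 and 24 (1.26) and without animal 24 alone. Cyp11b1, the steroid 11-beta hydroxylase, was detected in no normal piece and in the tumors of 7 animals, 4, 9, 11, 13, 16, 25 and 26. It was not called over 11 pairs (adjusted p = 0.055), but passed the threshold when animal 17, 21, 22 or 24 was left out (adjusted p = 0.040, 0.041, 0.037 and 0.018), and its second probe, on 1 normal and 2 OSCC arrays, had an adjusted p of 0.54. The Cyp11b genes are close relatives, and their probes may share signal. OSCC arrays of the 7 animals with Cyp11b1 detected had 75th percentiles of 499 to 1414, and the remaining OSCC arrays 339 to 533. The normal arrays ran from 237 to 655. Detection follows array brightness as well as level, so these counts cannot be read as presence against absence. The part of brightness in them was not tested. No fold is given for Cyp24a1 or Cyp11b1, since the detection floor of the normal arrays lay above their OSCC mean.

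Beyond the P450 genes themselves, 43 genes that supply electrons or heme to P450 enzymes, control their genes or act on their epoxide products were examined. Of these, 2 were called higher (Ahr, Hmox1) and 7 lower, against 14.8% of all genes, and 34 were not called; without animal 4, 4 were called higher. None of the 9 redox partners was called by limma or the paired t-test, while 6 had an unadjusted p below 0.05. The same 6 had an adjusted p below 0.05, a mark that 45.1% of all genes passed. Por, the P450 oxidoreductase, differed by 0.15 ± 0.12 (SE; adjusted p = 0.30), but by -0.05 with arrays scaled to their median. The mitochondrial ferredoxin Fdx1 was lower in 11 of 11 pairs, by 0.70 on the log2 scale (difference -0.70, adjusted p = 0.0032), and Cyb5r3, the cytochrome b5 reductase, differed by -0.66 (adjusted p = 0.00054). Cyb5b, the outer mitochondrial cytochrome b5, differed by 0.57 and was higher in 11 pairs (adjusted p = 0.0017).

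Of 22 regulators, 1 was called higher and 6 lower, against 7.7% and 7.12% of all genes. Nr0b2, a nuclear receptor that represses bile acid synthesis genes in liver, spanned -1.24 to -0.10 in normal pieces (median -0.21), against -6.34 to -0.14 in the tumors (median -3.38), and differed by -2.85 ± 0.58 (SE; adjusted p = 0.0028), lower in 9 of 11 pairs. It was detected in 11 normal pieces and 7 tumors, so the value rests in part on tumor signals at background. Rxrg, a retinoid X receptor of muscle, differed by -2.12 ± 0.53 (adjusted p = 0.0085), with the muscle markers lower in 8 of 11 pairs. Ppara, a fatty acid receptor, was called lower on a probe detected in 3 normal pieces and 2 tumors. Nr1h4 and Nr1i3, receptors for bile acids and for foreign compounds, were called lower on 1 array and on none, so no fold is given, and Nr1h4 lost its call without animal 4, 9, 13 or 25.

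In heme metabolism the breakdown enzyme Hmox1 spanned -1.66 to 1.34 in normal pieces (median -0.63), against 0.06 to 2.44 in the tumors (median 1.74). It rose in 11 of 11 pairs, by 1.96 ± 0.29 (SE; adjusted p = 0.00058), with 0.98 and 1.67 in animals 4 and 9. Of the 10 heme genes it was the one called, and 6 others had an adjusted p below 0.05 at smaller, negative differences; 27.6% of all genes passed that p on the lower side. Alas1, which sets the rate of heme synthesis, differed by -0.70 ± 0.14 (adjusted p = 0.0024), Urod by -0.62 and Hmox2 by -0.58. Ephx2, the hydrolase of epoxy fatty acids made by P450 epoxygenases, spanned -0.67 to 0.19 in normal pieces, against -2.50 to 0.08 in the tumors, and fell by 1.24 ± 0.25 on the log2 scale (adjusted p = 0.0025) with a fall in 9 of 11 pairs.

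Scan day, added as a term, is estimated from animals 4 and 9 alone for tissue, and with it none of the 77 Cyp genes was called by limma (0.017% of all genes), while 28 had an unadjusted p below 0.05 and a 2-fold lower value and 0 a higher one. Of those 28, 24 were detected on no array. In that fit Cyp27a1, Cyp2t1, Cyp2c79 and Cyp2f4 differed by -1.87, -1.80, -1.91 and -1.51, Cyp7b1 by 1.87 and Cyp3a9 by 0.07.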

How the data were processed

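RNA from 11 OSCC and 11 adjacent normal tongue pieces was hybridized to Agilent rat one-color arrays. Per the file headers the authors extracted signals with Feature Extraction 9.5.3.1 and rn4 annotation. The deposited intensity values are background-subtracted but unscaled. A second table by the authors gives the signal as a ratio to the 75th percentile of its array, used as an alternative. Control spots and 9196 outlier spots (0.975%) were left out, the log2 signals of a probe's spots averaged, and the array's 75th percentile subtracted. A probe was well above background on an array when at least 0.5 of its spots were so marked. No Cyp probe was saturated.

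Differences were fitted in limma 3.58.1 (R 4.3.3) on animal and tissue. Both tissues of a pair came from 1 animal; deviations of a pair from the tissue means correlated at -0.21 to 0.24 (median -0.03). P-values were adjusted by Benjamini-Hochberg over 30367 probes. Named were Cyp genes called or detected on all arrays, partner genes called, and Por and Ahr; the others were chosen after their values were seen. Members and lists were chosen with earlier results of these data known. In simulated data with 200 of 30299 probes changed in this comparison, 26.5% were recovered at a change of 1 on the log2 scale, 89.5% at 2 and 98.5% at 3. Recovery required the same adjusted p and 2-fold thresholds, so a change of 1 sits on the fold threshold itself. The simulated noise was drawn independently for each probe and array and held no slide or scan day effect. Symbols are those of the array; 63 of the 77 matched a current RefSeq gene by accession, 1 of them renamed. Promoters came from RefSeq (GRCr8). The number of arrays limits the precision.

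Alternatives covered scaling, background correction, a filter on dim probes (well above background on at least 11 arrays), outlier spots, pairing, test, threshold, scan day, slide and each animal.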

Additional observations from a re-analysis of the deposited data

How the results depend on the processing

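The fall of Cyp27a1 and Cyp2t1 stayed past the threshold under all alternatives but the scan day term, Cyp2c79 also fell below it after normexp correction (-0.84), Cyp2f4 in pairs scanned on different days and with slide as a random block (adjusted p = 0.059 and 0.051), and Cyp7b1 after normexp (0.96) and in pairs scanned on different days. Cyp3a9 was the least stable: 0.84 with median scaling, 0.91 after normexp, 1.00 with the slide block (adjusted p = 0.060) and 0.74 without animals 21, 22 and 24.

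Cyp genes called higher numbered 1 with array median scaling and with the slide block, 0 after normexp (0 also at an unadjusted p below 0.05) and with scan day, 7 without animals 21, 22 and 24, and 6 with no fold threshold. Cyp genes called lower numbered 3 after normexp and in pairs scanned on different days, 0 with scan day, 14 without those animals and 22 with no fold threshold. Partner genes called higher numbered 4 when scaled on detected probes and in pairs scanned on different days, 1 after normexp, 0 with scan day (1 at an unadjusted p below 0.05) and 6 with no fold threshold. Those called lower numbered 4 with the filter on dim probes, 2 after normexp, 0 with scan day (10 at an unadjusted p below 0.05), 11 without animals 21, 22 and 24 and 23 with no fold threshold. Leaving out each animal in turn gave 1 to 5 Cyp genes higher (1 without animal 11 and 5 without animal 24) and 5 to 7 lower, and 2 to 4 partner genes higher (4 without animal 4) and 6 to 8 lower. The cause of these shifts was not tested. The shift over all genes was -0.40 with median scaling and -0.03 after quantile normalization.

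Without the pairing (no replicate block) 3 Cyp genes were called higher and 6 lower, and 2 and 7 partner genes; Cyp11b1 was the added gene (adjusted p = 0.044).

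Direction turned for genes that were not called: Cyp2j3 (0.030 as the mean of its probes, 0.061 with scan day, 0.029 without animals 21, 22 and 24), Cyp4f6 (0.023 when scaled on detected probes, 0.002 without animal 11 and 0.015 without animal 4), Cyp20a1 (-0.042 with median scaling), Por (-0.053 with median scaling, -0.15 with scan day), Cyp1b1 (-0.056 after normexp, -0.96 with scan day, -0.26 without animals 21, 22 and 24), Cyp4a8 (0.60 with scan day) and Cyp2c23 (-0.075 with scan day). For dim genes, signal over background limits what can be seen.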

Other observations

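Cyp4b1, which oxidizes aromatic amines and fatty acids at body surfaces, was detected in 11 normal pieces and 10 tumors and differed in both directions, from -2.30 in animal 9 to 2.29 in animal 22, with a fitted difference of -0.32 ± 0.40 (SE; adjusted p = 0.52). Cyp2j10, an epoxygenase relative, was lower in 9 of 11 pairs, by 0.70 on the log2 scale (difference -0.70, adjusted p = 0.038). Cyp21a1, the steroid 21-hydroxylase, was detected in 9 normal pieces and 11 tumors and differed by 0.20 (95% interval -0.07 to 0.47). Cyp2c23, an arachidonic acid epoxygenase of rat kidney, was detected in no normal piece and in 3 tumors.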
